A study of Mus musculus with 4 samples.

Results

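The nuclear-encoded genes of the mitochondrial respiratory chain and of ATP synthase were analyzed in liver of aP2-SREBP-1c mice. Members were chosen by name only: a gene was taken if a probe set (the probes that report on 1 transcript) was annotated to exactly 1 gene symbol, and if this symbol began with Nduf, Sdha, Sdhb, Sdhc, Sdhd, Uqcr, Cox4, Cox5, Cox6, Cox7, Cox8 or Atp5. This rule found 93 of the 19938 genes measured, represented by 119 probe sets. For the 18 members with several probe sets, the probe set with the highest mean was used. By complex, 41 members belonged to complex I, 8 to complex II, 8 to complex III, 19 to complex IV and 17 to complex V. Ndufa4 and Ndufa4l2 were counted with complex IV, since the Ndufa4 protein is a subunit of that complex despite its name.

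The mice were 4 males of the genotype B6-TgN(aP2-HA-SREBP-1cNT), in which an HA-tagged N-terminal part of human SREBP-1c is driven by the adipocyte promoter aP2. The transgene thus acts in adipose tissue, and the fatty liver studied here develops along with lipodystrophy and insulin resistance. All animals were fed regular laboratory chow and were killed with CO2 at 24 weeks of age. RNA of each liver was hybridized to 1 array. Arrays of C57Bl6 and alb-SREBP-1c livers were not analysed here, so the 4 mice form 1 group, the spread between mice is the only comparison, and no p-values are given.

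The respiratory chain passes electrons from NADH, through complex I, and from succinate, through complex II, by way of ubiquinone to complex III, cytochrome c and complex IV, where oxygen is reduced to water. Complexes I, III and IV pump protons across the inner mitochondrial membrane, and complex V uses the return of these protons to make ATP. Most subunits are encoded in the nucleus and a few in mitochondrial DNA. The liver depends on this machinery to burn fatty acids and to supply energy for gluconeogenesis and urea synthesis.

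The deposited values are log2 expression values, so that a difference of 1 is a 2-fold difference. Levels of different probe sets cannot be set against each other, because probes differ in brightness. Therefore each gene was compared with a background limit of its array and between mice. Receptors of the olfactory and vomeronasal organs stood in for genes without expression in liver. The 95th percentile over their 1210 probe sets served as the limit and was 5.52, 5.35, 5.34 and 5.33 in mice 1 to 4. All 11 measured hepatocyte markers, Alb among them, were above this limit in every mouse. Across the 12264 genes above background, the array of mouse 1 was compressed: the median difference between mouse 1 and the mean of the other mice was 0.13 in the lowest of 10 classes of mean expression and -0.23 in the highest. The correlation across these genes lay between 0.974 (mice 1 and 3) and 0.993 (mice 2 and 3). Pancreatic acinar transcripts differed from mouse to mouse as well, with medians of 8.14, 6.07, 6.54 and 7.91 over the 10 acinar markers measured, 9 of them above background. Differences in the number of cells of a type and in RNA per cell cannot be told apart in whole liver.

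Of the 93 members, 90 were above background on all 4 arrays, whereas 61.5% of all measured genes were. Every measured member of complexes I, II, III and V was above the limit. The 3 members that were not were Cox7b2, Cox8b and Cox8c, which are isoforms of complex IV subunits known from testis or muscle. Cox7b2 was at 3.84, 3.84, 3.71 and 3.77 in mice 1 to 4 and lay under the limit in each of them. Cox8b was at 5.51, 5.41, 5.05 and 5.09 and exceeded the limit in mouse 2 alone. Cox8c was at 5.22, 5.24, 5.36 and 5.50 and was under the limit in mice 1 and 2.

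The members' median SD was 0.13 (90 genes, jackknife standard error over the 4 mice 0.041), compared with 0.15 over all genes above background. The gap was smaller than this standard error. However, this is the error of the members' median alone, and the error of the gap was not computed. The median of complex I (0.16) was not below that of all genes. The lowest SD was 0.017 for Cox6c and the highest 0.44 for Ndufb6. More than 1.5-fold between highest and lowest mouse was found for 4 members (4.44%), compared with 12.9% of all genes above background. These 4 genes were Ndufb6, Ndufaf4 and Ndufs4 of complex I and Cox6a2 of complex IV. After quantile normalization 6 of the 90 members did, compared with 10.6% of all genes, and the median SDs were 0.096 and 0.14. Without mouse 1, Ndufaf4 alone differed by more than 1.5-fold (2.67% of all genes did), and the median SD was 0.076 for the members and 0.11 for all genes. Most members lie in the brightest part of the array. Of the 48 members in the highest class of mean expression, none differed by more than 1.5-fold, whereas 14.1% of all genes of this class did. The median SDs were 0.11 and 0.15. In the next lower class, 2 of 17 members did, compared with 13.5% of all genes of that class, and the median SDs were 0.14 and 0.15.

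**Figure D1:**
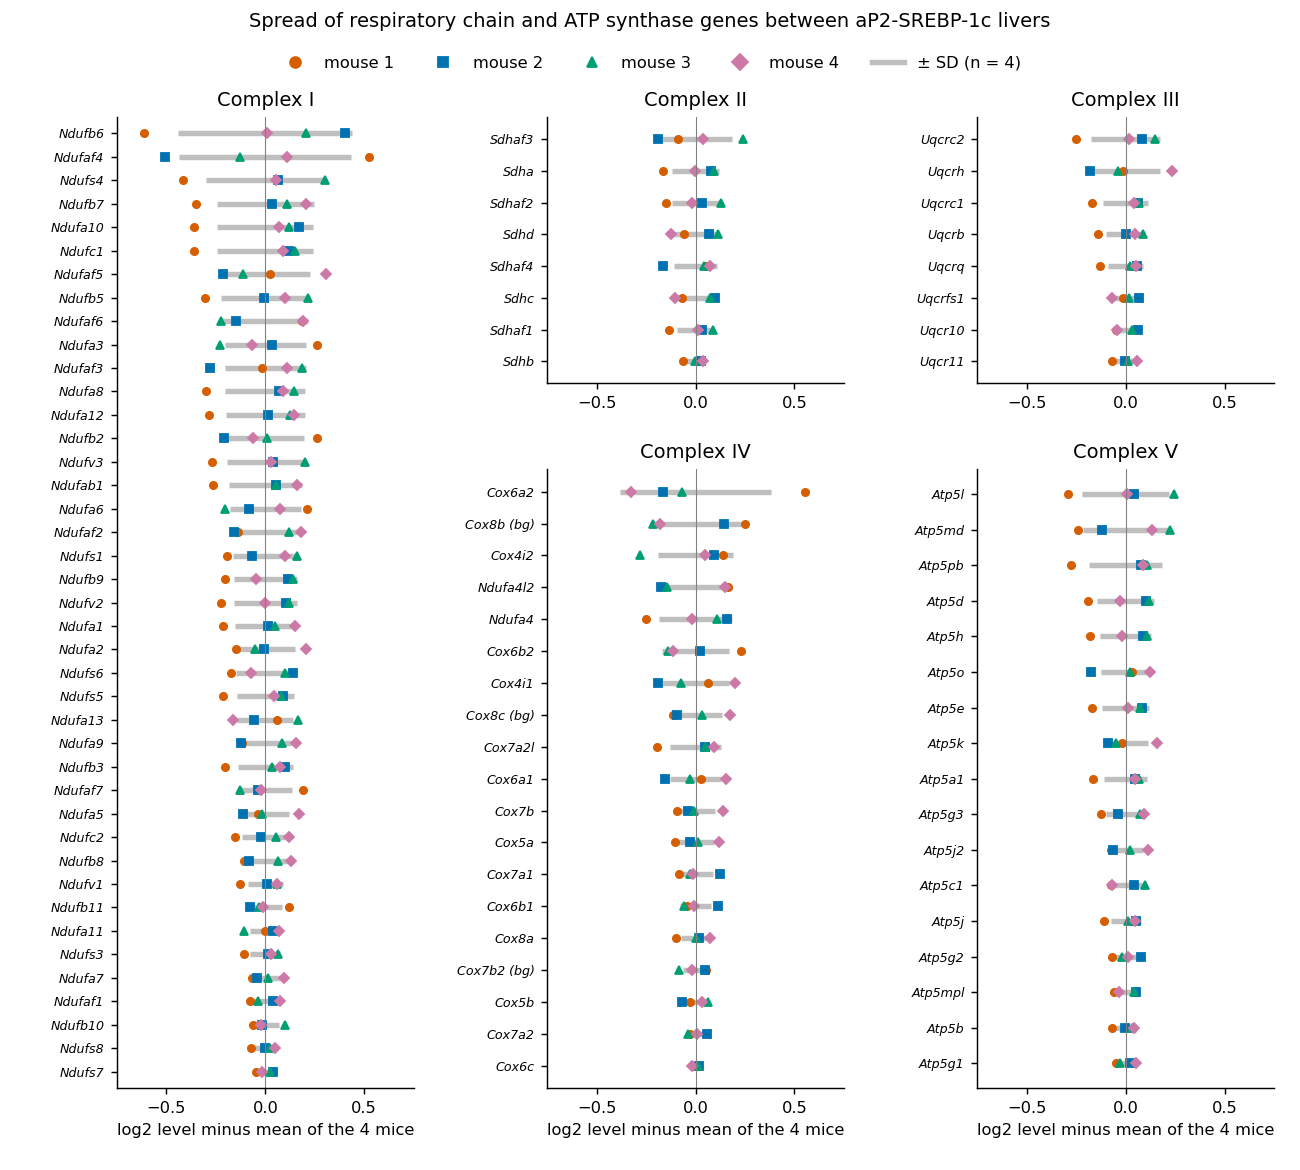
Level of each of the 93 members in mice 1 to 4, as the log2 difference from the mean of the 4 mice (horizontal axis), ordered by SD within each complex; grey bars show the SD (n = 4) and (bg) marks genes not above background. Most points lie within 0.25 of the mean, and Ndufb6, Ndufaf4, Ndufs4 and Cox6a2 have the widest spread.

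The value of mouse 1 was the lowest of the 4 mice for 58 of the 90 members, compared with 46.1% of all genes above background. It was the highest for 10 members, compared with 22.9% of all genes. This count depended on the scaling of the arrays: after quantile normalization of the 4 arrays, which gives them the same distribution, mouse 1 was lowest for 27 members and highest for 34. Of all genes above background, 36.1% were then lowest and 30.3% highest in mouse 1. The median difference between a mouse and the mean of the other mice was -0.12, 0.030, 0.067 and 0.065 for mice 1 to 4 in the deposited values, and for mouse 1 it turned to 0.047 after quantile normalization. Over all genes above background the same medians were -0.084, 0.026, 0.052 and 0.015, and that of mouse 1 was -0.020 after quantile normalization. In the highest class of mean expression, the median difference of mouse 1 was -0.15 for the members and -0.23 for all genes.

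Set side by side, the complexes gave the following spread. The median SD was 0.16 in complex I (41 genes, jackknife standard error 0.057), 0.11 in complex II (8 genes, 0.020), 0.093 in complex III (8 genes, 0.041), 0.11 in complex IV (16 genes above background, 0.022) and 0.11 in complex V (17 genes, 0.037). The median of complex I was above that of complexes II, IV and V by less than its own standard error and above that of complex III by slightly more. The errors of these gaps, which come from the same arrays, were not computed. More than 1.5-fold between mice was found for 3 of 41 genes in complex I (7.32%) and 1 of 16 in complex IV (6.25%). Complexes II, III and V held none, while 12.9% of all genes above background differed by this much. Without mouse 1, the median SDs of complexes I to V were 0.093, 0.092, 0.048, 0.087 and 0.066.

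Mouse 1 was the lowest mouse for 27 of 41 genes in complex I, 4 of 8 in complex II, 6 of 8 in complex III, 6 of 16 in complex IV and 15 of 17 in complex V. Of all genes above background, 46.1% were lowest in mouse 1. In complex I the median difference of mouse 1 was -0.17 in the deposited values and -0.010 after quantile normalization. In complex II the corresponding medians were -0.10 and -0.021. For complexes III, IV and V, the medians of -0.13, -0.038 and -0.15 turned to 0.071, 0.12 and 0.025 after quantile normalization. Complex IV had the highest median of mouse 1 among the complexes on both scales. Among the 65 members in the 2 highest classes of mean expression, the medians of mouse 1 were -0.23, -0.089, -0.13, -0.059 and -0.15 for complexes I to V, compared with -0.23 for all genes of these classes.

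**Figure D2:**
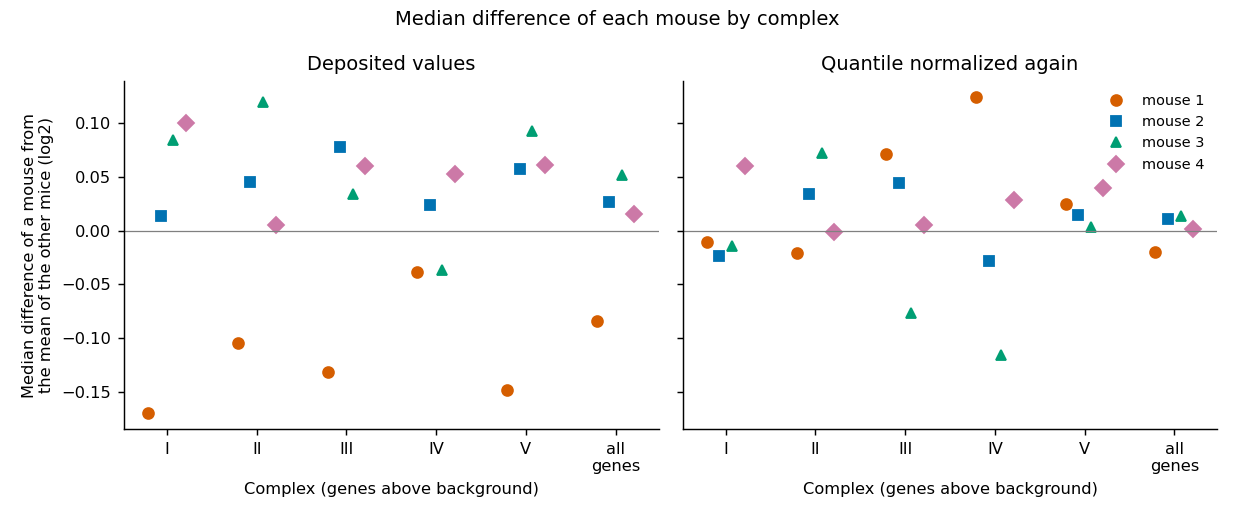
Median log2 difference of each mouse from the mean of the other mice (vertical axis) for the genes above background of complexes I to V and for all genes, in the deposited values (left) and after quantile normalization of the 4 arrays (right). Mouse 1 is the lowest point of every complex in the deposited values, and its medians turn to 0.071, 0.12 and 0.025 for complexes III, IV and V on the right.

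Complex I oxidizes NADH and is the largest of the 5 complexes. Its 41 measured genes comprised 6 core subunits, 28 accessory subunits and 7 assembly factors. The core subunits had the lowest median SD of these classes, 0.082. All 6 of them were lowest in mouse 1 (46.1% of all genes above background were), but their median difference of mouse 1 turned from -0.16 to 0.046 after quantile normalization. Ndufs7, an iron-sulfur subunit of the electron path, was at 9.40, 9.48, 9.47 and 9.43 in mice 1 to 4 (mean 9.45 ± 0.037, SD, n = 4). Ndufs8, another iron-sulfur subunit, was at 9.70, 9.77, 9.80 and 9.83 (9.78 ± 0.053). These had the smallest SDs of the complex in the deposited values, with 1.06-fold and 1.09-fold between highest and lowest mouse. After quantile normalization their SDs were 0.085 and 0.063, above that of Ndufv1 (0.028), and the differences of mouse 1 turned to 0.15 and 0.11.

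Ndufv1, the flavin subunit that accepts electrons from NADH, was at 9.21, 9.35, 9.40 and 9.40 (9.34 ± 0.088). Ndufs1, the large iron-sulfur subunit, was at 9.05, 9.18, 9.41 and 9.35 (9.25 ± 0.16). In both, mice 3 and 4 were the highest and mouse 1 was the lowest, with differences of mouse 1 of -0.17 and -0.26, or 0.034 and -0.046 after quantile normalization.

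The accessory subunits surround the core and had a median SD of 0.16. The largest spread of all members was found for Ndufb6, an accessory subunit of the membrane arm, at 8.31, 9.32, 9.13 and 8.93 in mice 1 to 4 (8.92 ± 0.44). Mouse 1 stood below the other mice by 0.82, and the highest mouse exceeded the lowest by 2.02-fold. After quantile normalization this range was 1.83-fold. Among mice 2 to 4 it was 1.31-fold.

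Ndufs4 is an accessory subunit near the NADH-binding end whose loss causes complex I deficiency in humans and mice. Its level was 8.64, 9.11, 9.35 and 9.10 (9.05 ± 0.30). Mouse 1 was again the lowest and mouse 3 the highest, with 1.64-fold between them, or 1.40-fold after quantile normalization. Among the accessory subunits, the genes that came next were Ndufb7, Ndufa10, Ndufb5 and Ndufc1, with between 1.43-fold and 1.47-fold, and mouse 1 was the lowest for each. In contrast, mouse 1 was the highest of the 4 for Ndufa3, Ndufa6 and Ndufb2, for which it exceeded the mean of the other mice by 0.35, 0.28 and 0.35.

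For Ndufb11, a further accessory subunit, mouse 1 was also the highest in the probe set with the higher mean (8.88, 8.68, 8.73 and 8.74), but its second probe set gave 8.04, 8.63, 8.40 and 8.34. Hence the direction of Ndufb11 differed between its probe sets. The probe sets of Ndufa11 differed as well, with a difference of mouse 1 of -0.0023 in the probe set used and of -0.34 in the other. In the deposited values, both probe sets of Ndufc1, Ndufab1 and Ndufs3 placed mouse 1 lowest.

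The 7 assembly factors, which help to build complex I without remaining in it, had a median SD of 0.20. Mouse 2 was the lowest for 4 of them and mouse 1 for 1 of them, while mouse 2 was the lowest for 2300 of the 12264 genes above background. Their median differences from the other mice were 0.029, -0.21, -0.15 and 0.15 for mice 1 to 4, and 0.091, -0.22, -0.11 and 0.13 after quantile normalization. Ndufaf4 had the widest range of all members, at 8.42, 7.38, 7.76 and 8.00 (7.89 ± 0.43), which is 2.05-fold between mouse 1 and mouse 2. This range was 2.27-fold after quantile normalization and 1.54-fold among mice 2 to 4. Mice 1 and 4 were the highest for Ndufaf4 and also for the acinar gene Cpa1, at 9.02, 6.31, 6.69 and 8.49. A part of acinar RNA in the Ndufaf4 values was not tested.

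The promoters of the 2 members with the widest range are shown here, in the 250 bases before the annotated start of the gene, read 5′ to 3′ in the direction of transcription. The sequences and positions are those of RefSeq for the build GRCm38.p6, and capitals mark the motifs found by the search described further down. The Ndufaf4 promoter lies at chr4:24897833-24898082 on the plus strand and holds an NRF1 and an SP1 motif, at 66.4% G and C. The Ndufb6 promoter lies at chr4:40279422-40279671 on the minus strand and held none of the 6 motifs searched, at 56.4% G and C.
Ndufaf4: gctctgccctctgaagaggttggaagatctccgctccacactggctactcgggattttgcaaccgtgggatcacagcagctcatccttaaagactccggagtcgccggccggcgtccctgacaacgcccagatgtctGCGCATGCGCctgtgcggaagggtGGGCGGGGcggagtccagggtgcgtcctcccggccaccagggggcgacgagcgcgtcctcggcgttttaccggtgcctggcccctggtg
Ndufb6: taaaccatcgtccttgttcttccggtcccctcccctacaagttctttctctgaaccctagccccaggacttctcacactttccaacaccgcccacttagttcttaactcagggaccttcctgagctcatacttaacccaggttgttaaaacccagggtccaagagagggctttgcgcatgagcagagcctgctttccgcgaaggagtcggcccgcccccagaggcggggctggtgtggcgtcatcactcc

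Complex II, or succinate dehydrogenase, belongs to the citrate cycle as well and is encoded wholly in the nucleus. All 4 subunits and 4 assembly factors were above background, and none differed by more than 1.5-fold. Sdha, the flavin subunit that oxidizes succinate, was at 11.28, 11.52, 11.53 and 11.44 in mice 1 to 4 (11.44 ± 0.12). Sdhb, the iron-sulfur subunit, was at 10.33, 10.42, 10.40 and 10.44 (10.40 ± 0.047) and had the smallest SD of this complex in the deposited values. After quantile normalization the SD was 0.055 for Sdhb and 0.031 for Sdha. Mouse 1 was the lowest for both in the deposited values, whereas its difference for Sdhb turned from -0.087 to 0.084, and the median over the 4 subunits from -0.089 to 0.086, after quantile normalization.

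The membrane anchors Sdhc and Sdhd were instead lowest in mouse 4, closely followed by mouse 1. Sdhc was at 10.67, 10.84, 10.81 and 10.64, and Sdhd at 10.38, 10.51, 10.55 and 10.31. The largest spread was found for the assembly factor Sdhaf3, at 6.96, 6.86, 7.29 and 7.09 (7.05 ± 0.19, 1.35-fold). The other assembly factors Sdhaf1, Sdhaf2 and Sdhaf4 had SDs of 0.095 to 0.12. For Sdhaf4, whose level of 5.78 was close to background, the second probe set varied more, at 5.93, 5.00, 5.33 and 5.69.

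Complex III hands electrons from ubiquinone to cytochrome c, and its 8 measured subunits had the lowest median SD of the complexes in the deposited values. After quantile normalization this median was 0.071 in complex III and 0.067 in complex V. Uqcrfs1, the Rieske iron-sulfur protein, was at 9.01, 9.08, 9.03 and 8.95 in mice 1 to 4 (9.02 ± 0.057). The small subunits Uqcr11 and Uqcr10 varied by 1.09-fold and 1.08-fold between highest and lowest mouse (SD 0.053 and 0.055).

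The core proteins varied more. Uqcrc1 was at 9.16, 9.39, 9.40 and 9.37 (9.33 ± 0.11), so that mouse 1 stood apart from 3 nearly equal mice, by -0.23 in the deposited values and by -0.016 after quantile normalization. Uqcrc2 was at 10.88, 11.22, 11.28 and 11.15 (11.13 ± 0.18), again with mouse 1 as the lowest. Uqcrh, the hinge protein that binds near cytochrome c1, showed another order, at 10.72, 10.55, 10.70 and 10.97 (10.74 ± 0.17), with mouse 2 the lowest and mouse 4 the highest. Without mouse 1, the range of Uqcrc1 was 1.02-fold and that of Uqcrh was still 1.34-fold.

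Complex IV, or cytochrome c oxidase, reduces oxygen, and several of its nuclear subunits exist as isoforms for different tissues. The 10 subunits present in all tissues or typical of liver had a median SD of 0.085, and none differed by more than 1.5-fold. Cox6c had the smallest SD of all members in the deposited values, at 11.57, 11.59, 11.59 and 11.56 in mice 1 to 4 (11.58 ± 0.017). Its second probe set gave 11.40, 11.52, 11.61 and 11.49, and after quantile normalization the SD of Cox6c was 0.095, above those of Ndufv1 (0.028) and Uqcrc1 (0.028). Cox5a was at 9.22, 9.29, 9.33 and 9.44 (9.32 ± 0.093). Ndufa4 was at 11.39, 11.80, 11.75 and 11.63 (11.64 ± 0.18), with mouse 1 the lowest. Cox7a2l, which takes part in the assembly of supercomplexes, was at 8.48, 8.72, 8.72 and 8.77 (8.67 ± 0.13), with mouse 1 below 3 close values.

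For every isoform pair of complex IV, the form known from liver or from all tissues was well above the background limit. The means of the tissue forms above background exceeded the mean limit by 0.62 or less, except for Cox6a2, for which this was 1.47. Cox4i1, the general form of subunit 4, was at 9.79, 9.54, 9.65 and 9.93 (9.73 ± 0.17). Cox4i2, the form known from lung, was at 5.88, 5.84, 5.46 and 5.79 (5.74 ± 0.19). Mouse 3 was its lowest value and exceeded the limit of 5.34 of its array by little.

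Cox6b1 was at 10.98, 11.14, 10.97 and 11.02 (11.03 ± 0.077), while Cox6b2, known from testis, was at 6.03, 5.82, 5.66 and 5.69 (5.80 ± 0.17). For subunit 7a, the liver form Cox7a2 was at 9.10, 9.18, 9.09 and 9.13 (9.12 ± 0.042). The muscle form Cox7a1 was at 5.92, 6.13, 5.98 and 5.99 (6.00 ± 0.089), with mouse 1 the lowest.

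The liver form Cox8a was at 9.95, 10.07, 10.06 and 10.12 (10.05 ± 0.071), whereas the other forms of subunit 8 were those not above background. Cox7b was at 10.68, 10.74, 10.77 and 10.92 (10.78 ± 0.10). Ndufa4l2, a relative of Ndufa4 that is induced by low oxygen, was at 5.90, 5.56, 5.59 and 5.88 (5.73 ± 0.18) and was above the limit in each mouse. Its values were higher in mice 1 and 4, in which the acinar transcripts were also higher. This relation was not tested.

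The liver form Cox6a1 was at 11.27, 11.09, 11.22 and 11.40 (11.25 ± 0.13). Cox6a2, the form of heart and skeletal muscle, was clearly above background, at 7.42, 6.70, 6.79 and 6.54 (6.86 ± 0.38). Mouse 1 exceeded the mean of the other mice by 0.74, and the range was 1.84-fold, or 1.96-fold after quantile normalization. Among mice 2 to 4 it was 1.19-fold.

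Of 12 skeletal muscle markers, 6 were above background, and the defining fast myosins Myh1, Myh2 and Myh4 were not. In mice 1 to 4, the log2 of the summed level of these 12 markers was 9.47, 9.36, 9.42 and 9.24. Of 9 heart muscle markers, 7 were above background, while Nppb and Myl2 were not, and their summed level was 9.20, 8.94, 8.85 and 8.99. The median difference of mouse 1 was 0.091 over the 6 skeletal muscle markers above background and 0.34 over the 7 heart markers above background. Mouse 1 was the highest for 2 of these skeletal muscle markers and for 5 of these heart markers. Of the other heart markers above background, Tnnt2 was highest in mouse 2 and Myl7 in mouse 4. Some other markers were raised in mouse 1 as well. The median was 0.60 for 2 of 4 measured white adipocyte markers and 0.32 for 2 of 6 testis markers, those above background. Of the others, Tnp1 and Odf1 were highest in mouse 1, Adipoq and Ldhc in mouse 4, and Lep and Tnp2 in mouse 2. Over all genes of the lowest class of mean expression the median was 0.13. Over all genes of the class that holds Cox6a2, with means from 6.86 to 7.20, it was -0.10. Of 5 brown adipocyte markers, Cidea and Elovl3 were above background and lowest in mouse 1, with a median of -0.69. Of the other brown adipocyte markers, Ucp1 and Dio2 were highest in mouse 1 and Zic1 in mouse 4. The part of any of these in the Cox6a2 values was not tested.

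**Figure D3:**
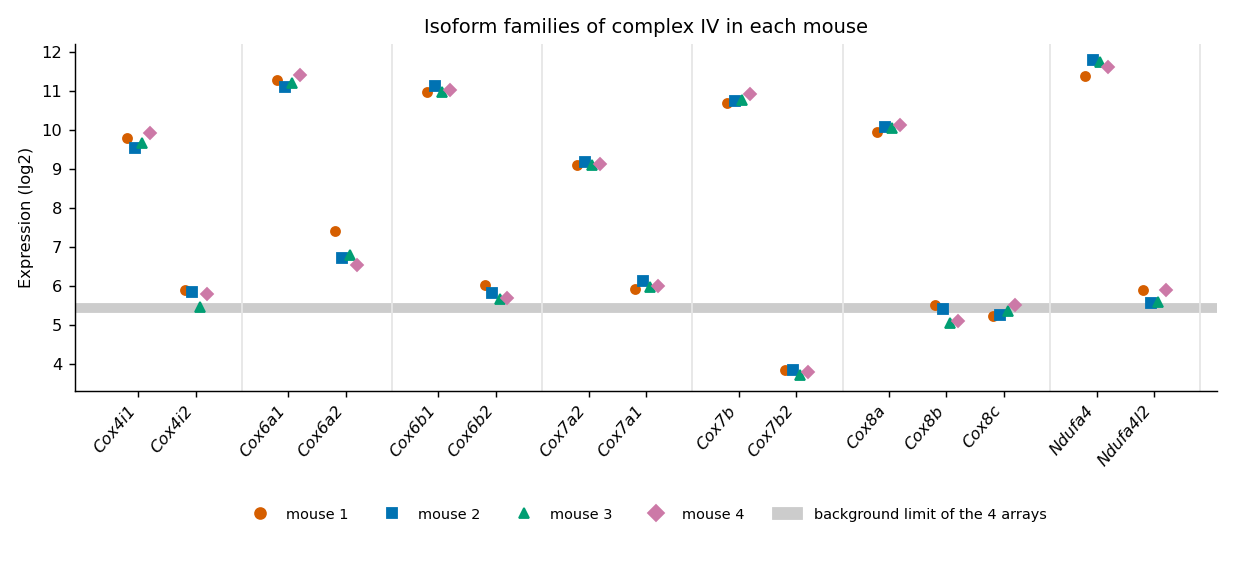
Log2 expression (vertical axis) of the isoform families of complex IV in mice 1 to 4, with the range of the background limits of the 4 arrays as a grey band; levels of different genes are not comparable. Cox6a2 lies above the band in every mouse, while Cox7b2, Cox8b and Cox8c are not above it in all mice.

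Complex V, the ATP synthase, consists of the catalytic F1 head, a central and a peripheral stalk and the membrane part Fo with its proton ring. All 17 genes were above background, and none differed by more than 1.5-fold. In the deposited values mouse 1 was the lowest mouse for 15 of them (46.1% of all genes above background), and mouse 2 for Atp5o and Atp5k. Atp5b, the catalytic beta subunit, was at 12.10, 12.17, 12.20 and 12.21 in mice 1 to 4 (12.17 ± 0.051). Atp5a1, the alpha subunit, was at 11.32, 11.53, 11.55 and 11.53 (11.48 ± 0.11), with mouse 1 below 3 close values. The 5 genes of the head and central stalk had a median difference of mouse 1 of -0.22, or -0.048 after quantile normalization.

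In the peripheral stalk, Atp5pb was at 10.62, 10.97, 11.00 and 10.98 (10.89 ± 0.18). Again mouse 1 was apart from the other mice, which differed by 1.02-fold. Its second probe set gave the same order for mouse 1, at 10.06, 10.37, 10.34 and 10.26.

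The 3 genes for the c subunit of the proton ring, which encode the same mature protein, were steady in the deposited values. Atp5g1 was at 11.09, 11.16, 11.11 and 11.19 (11.14 ± 0.046), and Atp5g2 at 10.37, 10.52, 10.42 and 10.45 (10.44 ± 0.062). Atp5g3 was at 11.01, 11.10, 11.21 and 11.23 (11.14 ± 0.10). After quantile normalization the SDs of Atp5g1, Atp5g2 and Atp5g3 were 0.074, 0.069 and 0.052, compared with a median of 0.067 in complex V. Mouse 1 was the lowest for each of the 3 genes by less than 0.17, a difference that turned to a median of 0.078 after quantile normalization.

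The widest ranges of complex V were found in the membrane part. Atp5l, the g subunit, was at 10.22, 10.55, 10.75 and 10.51 (10.51 ± 0.22, 1.45-fold). Atp5md, a small subunit that helps to join ATP synthase dimers, was at 10.79, 10.92, 11.26 and 11.17 (11.03 ± 0.22, 1.38-fold). All 6 probe sets of Atp5l had mouse 1 as the lowest and mouse 3 as the highest, with differences of mouse 1 between -0.43 and -0.18. Several probe sets of 1 gene may share signal from near-identical copies and are not independent.

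**Figure D4:**
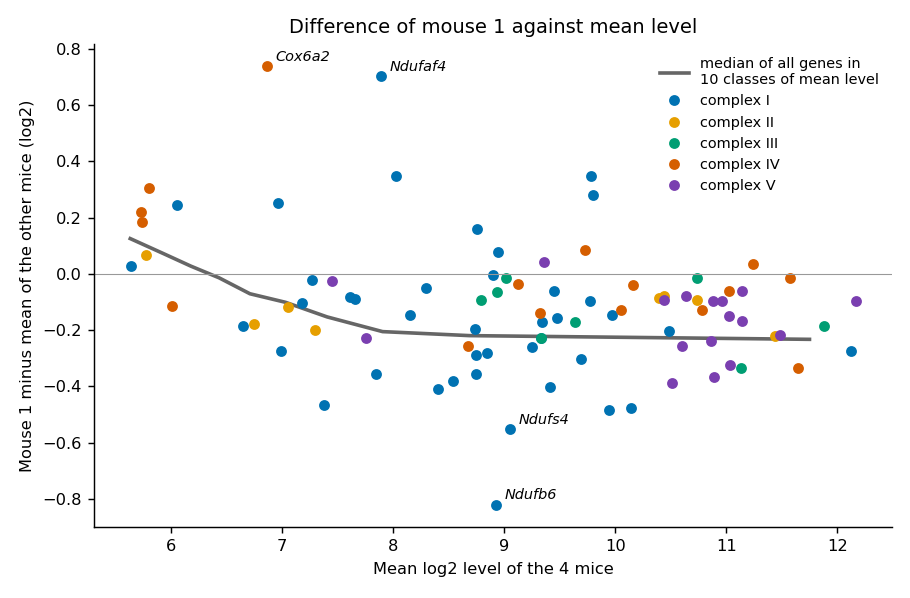
Log2 difference of mouse 1 from the mean of the other mice (vertical axis) against the mean log2 level of the 4 mice (horizontal axis) for the 90 members above background, coloured by complex, with the median of all genes in 10 classes of mean level as a grey line. The line falls from 0.13 to -0.23, and Ndufb6 and Ndufs4 lie below it and Ndufaf4 and Cox6a2 above it in the deposited values.

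The promoters of the members were searched for 6 motifs on both strands, since nuclear subunit genes are known to be bound by shared factors. RefSeq promoters of 300 bases, from 250 before to 50 after the start, were found for 77 of the 93 members and for 27025 genes in all. The motif of NRF1 (GCGCATGCG), whose letters overlap their own complement, was present in 10 members (13%), compared with 1.95% of all genes. The motif of YY1 (AAGATGGCG) was present in 7 members (9.09%), compared with 1.64%. The motif of ETS factors such as GABPA (CCGGAAGT) was found in 5 members (6.49%, compared with 4.31%) and that of estrogen-related receptors (TCAAGGTCA) in 2 members (2.60%, compared with 0.466%). The motif of SP1 (GGGCGGGG) was present in 16 members (20.8%, compared with 19.6%), and the TATA box (TATAAA) in 9 members (11.7%, compared with 15.7%). In the 250 bases before the start alone, the YY1 motif was found in 1 of the 77 members (0.71% of all genes held it) and the NRF1 motif in 7 (1.64% of all genes). A match of letters is not a bound site.

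The NRF1 motifs of the 10 members are shown, since NRF1 is a known activator of nuclear subunit genes. Each line gives the motif in capitals with up to 10 bases on either side, in the direction of transcription. The sites lie at chr15:102671071-102671099 on the minus strand (Atp5g2), chr5:108434431-108434459, minus (Atp5k), chr9:44920965-44920992, minus (Atp5l), and chr5:115349102-115349130, minus (Cox6a1). They lie further at chr17:56717692-56717720, plus (Ndufa11), chr2:36049329-36049357, minus (Ndufa8), chr4:24897960-24897988, plus (Ndufaf4), and chr2:140170652-140170680, plus (Ndufaf5). The last pair lies at chr10:80406808-80406836, minus (Uqcr11), and chr9:108936668-108936696, plus (Uqcrc1).
Atp5g2: ggctccggccGCGCATGCGcagagccttc
Atp5k: tttcactgcgGCGCATGCGcctttctggc
Atp5l: aaccaataaCGCATGCGCatttccccca
Cox6a1: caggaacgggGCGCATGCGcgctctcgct
Ndufa11: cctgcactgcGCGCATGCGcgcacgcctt
Ndufa8: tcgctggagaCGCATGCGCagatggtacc
Ndufaf4: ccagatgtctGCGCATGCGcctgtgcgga
Ndufaf5: agtcccgttgGCGCATGCGcctaatagaa
Uqcr11: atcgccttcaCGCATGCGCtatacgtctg
Uqcrc1: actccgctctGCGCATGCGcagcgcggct

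The genes with this motif differed in their spread between mice. Their SDs ranged from 0.053 for Uqcr11 to 0.43 for Ndufaf4, with a median of 0.12 and a median difference of mouse 1 of -0.059. The 7 genes with the YY1 motif had a median SD of 0.14 and a median difference of mouse 1 of -0.16. Of the factors, Nrf1, Gabpa, Yy1 and Esrra varied by less than 1.5-fold. Yy1 was at 8.42, 8.30, 8.43 and 8.53 in mice 1 to 4 (8.42 ± 0.095). Nrf1 was at 6.25, 6.36, 6.25 and 6.38 in mice 1 to 4 (6.31 ± 0.068), and Gabpa at 7.92, 8.00, 8.01 and 7.92 (7.96 ± 0.049). Esrra, an estrogen-related receptor, was at 7.26, 7.10, 6.93 and 7.08 (7.09 ± 0.13).

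All 17 regulators of mitochondrial biogenesis exceeded the background limit. Their median SD was 0.15, and 1 of them (5.88%) differed by more than 1.5-fold, compared with 12.9% of all genes above background. This regulator was Tfb1m, which modifies mitochondrial ribosomal RNA, at 6.25, 6.71, 7.16 and 6.87 (6.75 ± 0.38, 1.88-fold). The coactivator Ppargc1a was at 6.36, 6.94, 6.89 and 6.58 (6.70 ± 0.27), with mice 1 and 4 below mice 2 and 3. Tfam, which packages mitochondrial DNA, was at 6.55, 7.06, 7.11 and 7.03 (6.94 ± 0.26), with mouse 1 below 3 close values.

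Of 25 measured assembly factors with other symbols, 23 were above background, and 5 differed by more than 1.5-fold: Cox18, Sco1, Uqcc1, Atpaf2 and Ecsit. This was 21.7%, compared with 12.9% of all genes above background. Mouse 1 was the lowest for 19 of the 23 (46.1% of all genes above background), with a median difference of -0.25, or -0.12 after quantile normalization. Atpaf2, an assembly factor of the F1 head, was at 6.06, 6.67, 6.69 and 6.74 (6.54 ± 0.32). Timmdc1, an assembly factor of complex I, was steady in the deposited values, at 8.41, 8.47, 8.48 and 8.49 (8.46 ± 0.036).

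The 8 measured genes of ubiquinone synthesis, which provides the electron carrier between the complexes, had a median SD of 0.14. In the deposited values they included the largest and the smallest SD of the 5 further pathway lists. Coq5 and Coq7 differed by more than 1.5-fold (25.0%, compared with 12.9% of all genes above background). Coq5, a methyltransferase, was at 7.86, 8.99, 9.05 and 8.42 (8.58 ± 0.56), which is 2.28-fold between mice 1 and 3. Coq9 was at 9.21, 9.24, 9.19 and 9.19 (9.21 ± 0.021). After quantile normalization the SD of Coq9 was 0.11, above that of Timmdc1 (0.057).

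The 13 measured citrate cycle enzymes, which supply NADH and succinate, had a median SD of 0.18, and 3 of them (Cs, Idh3a and Suclg2) differed by more than 1.5-fold. This was 23.1%, compared with 12.9% of all genes above background. Citrate synthase (Cs) was at 9.03, 9.73, 9.82 and 9.53 (9.53 ± 0.35), with mouse 1 the lowest. Dlst was at 9.68, 9.64, 9.79 and 9.86 (9.74 ± 0.10).

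The 6 other subunits and electron carriers had a median SD of 0.12, and none differed by more than 1.5-fold (12.9% of all genes above background did). Cytochrome c (Cycs) was at 11.29, 11.39, 11.34 and 11.31 (11.33 ± 0.043), whereas Etfa, which carries electrons from fatty acid oxidation, was at 10.65, 10.39, 10.58 and 10.93 (10.64 ± 0.22). The 13 subunits encoded in mitochondrial DNA were not analysed here, and neither were Ndufb1, Ndufb4, Ndufaf8 and Cox7c.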

How the data were processed

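Liver RNA of 4 aP2-SREBP-1c mice was measured with 1 array per mouse. The authors deposited log2 expression values per probe set, made by RMA (the submitters' processing notes name the Affymetrix Expression Console). RMA corrects background, applies quantile normalization and summarizes probes by median polish. Not given in the sources used here are the genome build and which arrays were normalized together. The table held 35556 probe sets, of which 21789 had 1 symbol in the platform annotation and were used, 1621 had several and 12146 were unnamed here. Of the 1621, 6 carried a symbol that begins as the rule asks and were left out. Each value column was matched to a mouse by its label, with 0 columns left over.

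Means, SDs and differences were computed on the deposited log2 values with Python 3.11.15 (matplotlib 3.10.9, numpy 2.4.6, pandas 2.3.3), and the steps were tested on simulated data. A gene was above background if it exceeded the limit on all 4 arrays. Summed levels are sums of the linear values, given as log2. With 1 group of 4 mice no test was made, and the number of arrays limits the precision. A pair of arrays shared identical values in 25 probe sets at most. Promoter sequences were those of RefSeq (GRCm38.p6).

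Named genes comprised, per complex, the 3 largest and 2 smallest SDs, all genes over 1.5-fold or not above background, central subunits, isoform families, the largest and smallest SD of each further pathway list, and Ppargc1a, Nrf1, Gabpa, Esrra and Tfam. Other genes were named after their values were seen. Members and lists were chosen with earlier results of these data known. Alternatives were quantile normalization, median-centred arrays, other background limits, no filter, the mean of all probe sets, structural subunits only, assignment by symbol, a 2-fold range, a shorter promoter window and leaving out each mouse.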

Additional observations from a re-analysis of the deposited data

Results flagged for a closer look

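Among the genes named by the rule and the medians of the complexes, a single mouse lay far from the other 3 by Dixon's ratio in 7 results, which chance alone gives in about 1 of 20 groups. Some of these genes were named for a large or small SD, so the 7 cannot be set against that share. In each of the 7 the mouse apart was mouse 1, and the values are log2 differences from the mean of the other mice. They were -0.23 for Uqcrc1, -0.37 for Atp5pb, -0.22 for Atp5a1 and -0.26 for Cox7a2l among the members, and -0.64 for Atpaf2 and -0.52 for Tfam among the further genes. The median over complex V was -0.15. The same criterion was met by 8 of the 90 members above background (8.89%) and by 5.75% of all genes above background. The 4 members outside the naming rule were Ndufa8, Ndufc1 and Ndufs5, with mouse 1 apart, and Sdhaf4, with mouse 2 apart by -0.22. After quantile normalization, the differences of mouse 1 for Uqcrc1, Atp5pb, Atp5a1 and Cox7a2l were -0.016, -0.18, -0.048 and -0.079. Those of Atpaf2 and Tfam were -0.66 and -0.48, and the median of complex V turned to 0.025.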

How the results depend on the processing

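No paired analysis was possible because no second group was analysed. Between 83 and 92 members were above background under the other limits, and 4, 5 and 6 differed by more than 1.5-fold in the deposited, median-centred and quantile-normalized values, compared with 12.9%, 14.3% and 10.6% of all genes above background. After quantile normalization Cox6a2, Ndufaf4 and Ndufb6 were still among these, Ndufs4 was not, and Ndufa3, Ndufa6 and Ndufb2 were added. With 2-fold in place of 1.5-fold the count was 2 (Ndufaf4 and Ndufb6). Leaving out each mouse in turn, it was 1 to 4, with the lowest value without mouse 1. The median SD over the members was then 0.076 to 0.13, and that of complexes I to V was 0.093 to 0.17, 0.092 to 0.12, 0.048 to 0.11, 0.087 to 0.12 and 0.066 to 0.12, lowest without mouse 1 throughout.

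Quantile normalization moved the median difference of the members from -0.12 to 0.047 in mouse 1 and from 0.067 to -0.031 in mouse 3. By complex it gave -0.010 and -0.014 (complex I, mice 1 and 3), -0.021 (II, mouse 1), 0.071 and -0.077 (III, mice 1 and 3), 0.12, -0.028 and -0.12 (IV, mice 1 to 3), and 0.025 and 0.0036 (V, mice 1 and 3), with median SDs of 0.083, 0.071 and 0.067 for complexes II, III and V. Median centring gave -0.077 and 0.088 for complex IV in mice 1 and 4. The limit at the 99th percentile gave -0.0019 for complex IV in mouse 3, and structural subunits alone gave -0.071 for complex II in mouse 4. Leaving out each mouse in turn, complex II in mouse 4 ranged from -0.069 to 0.051, complex III in mouse 2 from 0.0022 to 0.10, and complex IV from -0.017 to 0.017 in mouse 2 and from -0.050 to -0.0004 in mouse 3. The cause of these changes was not tested. In the bases before the start alone, the ETS, YY1 and estrogen-related receptor motifs were found in 3, 1 and 1 of 77 members, compared with 3.23%, 0.71% and 0.422% of all genes.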
